A study of Homo sapiens with 6 samples.

Results

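The genes described here are 43 DNA replication genes, chosen by symbol for their known part in origin licensing, the MCM2-7 helicase, the replicative polymerases and their partners, or the supply of deoxynucleotides. All 43 were found among the 60748 genes of the deposited table, and all 43 passed the filter on low counts that left 18275 genes to be tested. The rule for membership uses the symbol alone. RNA was sequenced in 6 libraries of LX-2, a human cell line derived from hepatic stellate cells, in which 3 libraries (LX-2FAP) came from cells stably overexpressing fibroblast activation protein α (FAPα), a cell-surface serine protease of activated fibroblasts, and 3 libraries (LX-2Vector) came from the negative control cells. Per the study's methods, the FAPα cells were made by lentiviral infection with a construct in the GV367 vector, which carries a ubiquitin promoter, EGFP and puromycin resistance, and stable overexpressing clones were selected with puromycin. GV367 is named as the corresponding vector, and how the control cells were selected is not spelled out. Cells of both groups were cultured for 24 h, and neither the number of clones in each group nor separate cultures for the 3 libraries of a group are given, so p-values measure the spread between these libraries, which may be technical. The comparison asks how the RNA of the replication machinery differed when FAPα was overexpressed.

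DNA is copied once per division in S phase. In G1 the origin recognition complex (ORC), CDC6 and CDT1 load the ring-shaped MCM2-7 helicase onto origins, and geminin (GMNN) binds CDT1 to prevent a second round. In S phase CDC45 and GINS join MCM2-7 to form the active helicase, polymerase alpha-primase lays primers, polymerase epsilon copies the leading strand and polymerase delta the lagging strand, PCNA clamps the polymerases to DNA, and FEN1 and DNA ligase 1 (LIG1) join the Okazaki fragments. Transcription of many of these genes is governed by E2F factors and peaks around the entry into S phase. Hepatic stellate cells are quiescent vitamin A-storing cells of the healthy liver that proliferate once activated, and LX-2 is a continuously dividing line of activated type. In RNA from whole cultures, fewer cells in S phase and less replication RNA per cell cannot be told apart.

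Total counts ranged from 17355700 to 26352060 per library. The FAP gene was counted 49, 42 and 55 times in the LX-2Vector libraries and 14864, 15160 and 14805 times in the LX-2FAP libraries, so the labels matched the overexpressed gene (log2 fold change 8.33, SE 0.13, adjusted p = 4.47e-16 in edgeR). Of the markers of stellate cells or myofibroblasts, VIM was at 294 to 331 FPKM (fragments per kilobase of gene length, scaled to the reads of the library) and COL1A1 at 21.8 to 36.8 FPKM, while COL1A2 was at or below 0.132 FPKM, DES at or below 0.0220 FPKM and LRAT, an enzyme of vitamin A storage, at a count of 0 in every library. Of 5 hepatocyte markers, ALB, APOA1, TTR and CYP3A4 were at or below 0.0972 FPKM and SERPINA1 was at 2.07 to 3.00 FPKM, and the epithelial marker EPCAM at or below 0.109 FPKM.

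Promoter sequences are shown first because binding sites for E2F factors are a known shared feature of replication genes. RefSeq promoter windows (GRCh38.p14, from 250 bases before to 50 bases after the start site) were matched by symbol for 37 of the 43 genes, with the window farthest upstream used where a gene had several. In the stretches below, read 5′ to 3′ on the strand of the gene, the capitals mark an E2F-type word (TTTGGCGC, TTTCGCGC or TTTCCCGC, on either strand). Stretches of 30 bases are given for the 3 genes with such a word that were lower in LX-2FAP, for 3 further MCM subunits, for the licensing factors CDC6 and ORC3, for the clamp PCNA and for thymidylate synthase (TYMS).
MCM7 (chr7:100101388-100101417, minus strand): ggggggcgacgTTTCGCGCcaatttcggtt
LIG1 (chr19:48170440-48170469, minus strand): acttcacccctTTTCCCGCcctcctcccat
POLE (chr12:132687342-132687371, minus strand): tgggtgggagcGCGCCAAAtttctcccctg
MCM2 (chr3:127598402-127598431, plus strand): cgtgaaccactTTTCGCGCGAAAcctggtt
MCM3 (chr6:52284728-52284757, minus strand): agttcggaagtTTTCGCGCcggggtggagt
MCM6 (chr2:135876511-135876540, minus strand): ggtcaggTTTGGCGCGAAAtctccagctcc
CDC6 (chr17:40287875-40287904, plus strand): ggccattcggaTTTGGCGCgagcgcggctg
ORC3 (chr6:87590112-87590141, plus strand): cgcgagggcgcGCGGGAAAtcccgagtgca
PCNA (chr20:5126663-5126692, minus strand): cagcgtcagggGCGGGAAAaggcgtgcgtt
TYMS (chr18:657603-657632, plus strand): gcgggacggccGCGGGAAAaggcgcgcgga

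Counted from the start site, where the first transcribed base is 1 and there is no 0, the first capital lay at -9 in MCM7, -114 in LIG1, -18 in POLE, 3 in MCM2, -4 in MCM3, -90 in MCM6, 8 in CDC6, -12 in ORC3, -59 in PCNA and -39 in TYMS. In MCM2 and MCM6 the capitals hold a pair of overlapping words, 1 on each strand. An E2F-type word stood in 18 of the 37 windows (48.6%), against 2.79% of the 27305 windows of all genes. The CCAAT word stood in 21 of the 37 windows (56.8%) against 35.7% of all windows, and TTTGAA, a form of the CHR element of G2 and M phase genes, in 1 of 37 (2.70%) against 15.5%, both strands searched. The windows of POLD1 and TK1, which were also lower in LX-2FAP, held none of the 3 E2F-type words.

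The levels of the replication genes spanned 71.9-fold per unit of gene length in the LX-2Vector libraries. PCNA, the sliding clamp, led at 205.1 ± 2.54 FPKM (SD, n = 3), followed by the flap nuclease FEN1 at 87.1 ± 4.24, the helicase subunit MCM3 at 80.6 ± 3.59, thymidine kinase TK1 at 79.4 ± 1.86 and MCM4 at 65.3 ± 1.18 FPKM. At the other end stood the primase subunit PRIM1 at 7.76 ± 0.498 FPKM, 3 genes that act with the helicase or polymerase epsilon, namely GINS3 at 6.74 ± 0.381, GINS2 at 5.23 ± 0.324 and POLE2 at 4.78 ± 0.293, and the polymerase alpha subunit POLA2 at 2.85 ± 0.282 FPKM. Of the 42 pairs of neighbours in this order, 18 did not overlap between the 3 libraries, among them PCNA against FEN1, whereas FEN1 overlapped with MCM3 and MCM3 with TK1, and TK1 stood apart from MCM4. Levels per length depend on the gene lengths the authors used, which ran from 1403 bases (PCNA) to 16790 bases (POLE) and equalled the merged exons of GENCODE release 29 for 12 of the 43 genes.

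**Figure D1:**
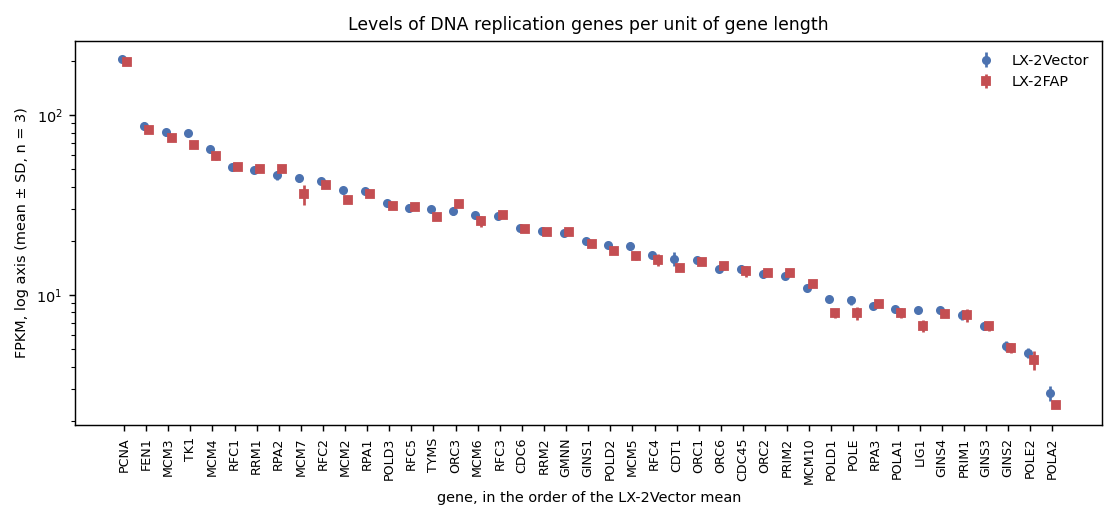
FPKM of the 43 replication genes on a log axis, in the order of their LX-2Vector means. Circles are LX-2Vector and squares LX-2FAP means with SD (n = 3 libraries each); PCNA leads at 205.1 FPKM, POLA2 is lowest at 2.85 FPKM, and the groups lie close together along the whole order.

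In the comparison of LX-2FAP with LX-2Vector, 5 of the 43 genes were lower in LX-2FAP (MCM7, LIG1, POLD1, POLE and TK1) and none was higher in edgeR's quasi-likelihood test at an adjusted p under 0.05. The lower genes were 11.6% of the members, where 2.73% of all tested genes were called lower, and the 0 called higher stand beside 2.57% of all tested genes (5.29% in either direction). At an unadjusted p under 0.05, 11 genes were lower (25.6%, against 11.6% of all tested genes) and 2 were higher (4.65%, against 10.5%), and the Wald test of DESeq2 called 1 gene higher, ORC3. The log2 fold changes ran from -0.27 to 0.15 with a median of -0.02, beside -0.01 over all tested genes. A difference of less than 1.2-fold was found for 41 of the 43 genes, beside 14956 of all 18275 tested genes. The study's cutoff of a fold over 1.2 with p under 0.05, applied to unadjusted p, kept MCM7 and LIG1, that is 2 lower (4.65%, against 6.44%) and 0 higher (against 1.45%). The share of all counts taken by the 43 genes was 0.507%, 0.506% and 0.506% in the LX-2Vector libraries and 0.494%, 0.470% and 0.480% in the LX-2FAP libraries. These shares are scaled to library size alone. Under that scaling the median log2 fold change was -0.05 over the members and -0.04 over all tested genes.

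These 5 calls were lost in several alternative fits. Where the trend of counts with GC content was removed from each library before the same test, none of the 5 passed (adjusted p 0.0828 to 0.593), 1 other gene, RPA2, was called higher, and over all tested genes 1.08% were called lower and 3.28% higher. The number of members called was 0 when LX-2Vector 1, LX-2FAP 2 or LX-2FAP 3 was left out, beside 391, 129 and 26 of all tested genes. It was 2 without LX-2Vector 2 (662 of all), 1 without LX-2Vector 3 (395 of all) and 10 without LX-2FAP 1 (1949 of all), where the main fit called 967. Over these 6 fits the log2 fold changes of the 5 genes stayed negative, at -0.36 to -0.18 for MCM7, -0.32 to -0.21 for LIG1, -0.26 to -0.19 for POLD1, -0.25 to -0.14 for POLE and -0.20 to -0.17 for TK1. In limma on log2(FPKM + 1), no member and 2 of all genes were called. For 1 gene, the smallest 2-sided p that an exact permutation of 3 against 3 libraries allows is 0.1.

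**Figure D2:**
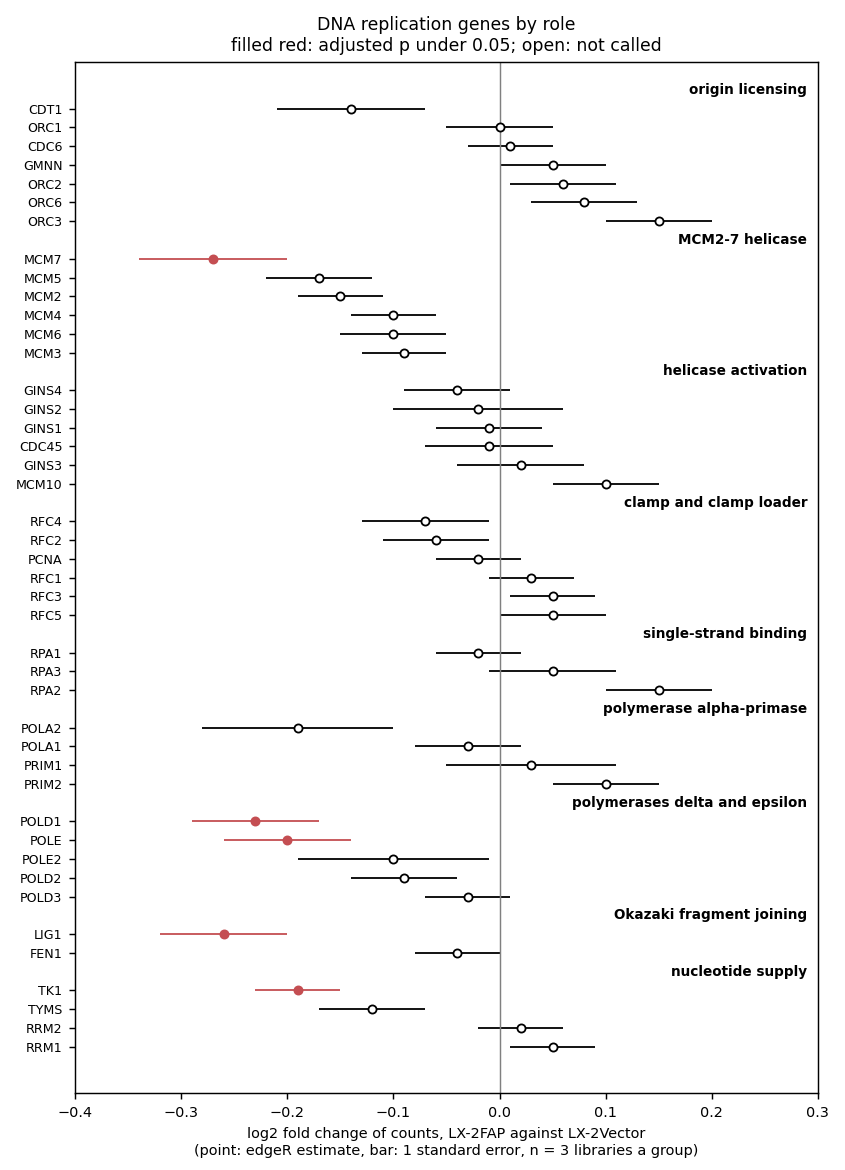
Log2 fold change of counts (LX-2FAP against LX-2Vector) of the 43 genes by role, with 1 standard error as bars (n = 3 libraries a group). Filled red points passed an adjusted p of 0.05 in edgeR and open points did not. All 6 MCM2-7 subunits and the 5 subunits of polymerases delta and epsilon among the 43 genes lie left of 0, between -0.27 and -0.03. With the GC trend removed (not shown), POLD2 came to 0.03 and the others of these subunits stayed negative.

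Origin licensing genes were not called in either direction. Of 7 genes, 5 had positive and 2 negative log2 fold changes, with a median of 0.05. ORC3, a subunit of the origin recognition complex, measured 114.4, 125.5 and 119.5 CPM (counts-per-million, TMM-normalized) in LX-2Vector and 127.5, 134.0 and 136.9 CPM in LX-2FAP. Its groups did not overlap, the log2 fold change was 0.15 (SE 0.05, adjusted p = 0.0715 in edgeR), and it was called in 2 of 16 alternative fits (DESeq2's Wald test, and without LX-2FAP 1). CDT1, the loader that geminin inhibits, stood at 48.0, 39.8 and 42.7 CPM in the control libraries and at 39.6, 40.1 and 39.0 CPM in the LX-2FAP libraries. These CDT1 values overlapped (log2 fold change -0.14, SE 0.07, adjusted p = 0.204 in edgeR), and with the GC trend removed the sign turned (0.02, SE 0.05). Geminin itself was at 52.7, 55.2 and 55.7 CPM against 55.2, 57.7 and 56.7 CPM, with overlap. The ratio of CDT1 to GMNN counts was 0.910, 0.721 and 0.767 in LX-2Vector and 0.717, 0.695 and 0.687 in LX-2FAP, so it was lower without overlap, by 0.00427 between the closest libraries. The 2 genes differ in GC content (64.9% and 43.6%), and the ratio was not formed with the GC trend removed. In that fit the log2 fold changes were 0.02 for CDT1 and 0.06 for GMNN. Summed over ORC1, ORC2, ORC3 and ORC6, the ORC subunits came to 303.8 ± 8.40 CPM in the control libraries and 323.2 ± 6.41 CPM in the LX-2FAP libraries (SD, n = 3), a difference of 6.37% without overlap. With ORC4 and ORC5, which belong to the further replication genes, the sums were 382.8 ± 10.8 CPM and 409.9 ± 4.39 CPM (7.09%), again without overlap.

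In the MCM2-7 helicase all 6 subunits had negative log2 fold changes, with a median of -0.13, and 1 of them, MCM7, passed the test. MCM7 (chromosome 7, 100092728 to 100101940, minus strand, GRCh38) measured 195.5, 184.3 and 203.2 CPM in the control libraries and 181.4, 140.8 and 162.0 CPM in the LX-2FAP libraries. The groups did not overlap, but LX-2FAP 1 lay 2.89 CPM below the lowest control while LX-2FAP 2 lay far lower, and the log2 fold change was -0.27 (SE 0.07, adjusted p = 0.0350 in edgeR). With the GC trend removed it was -0.16 (adjusted p = 0.164). MCM7 exons share 8.9% of their bases with AP4M1 on the other strand, and the microRNA genes MIR25, MIR93 and MIR106B within MCM7 had 0 to 22 counts per library, beside 2532 to 5166 counts of MCM7.

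MCM5 was at 144.9, 132.2 and 130.5 CPM in the control libraries and at 127.4, 118.6 and 117.0 CPM in the LX-2FAP libraries. MCM2 was at 189.0, 175.1 and 173.9 CPM against 166.5, 155.9 and 161.4 CPM. Both subunits were lower in every LX-2FAP library than in any control library, and both missed the adjusted threshold, with log2 fold changes of -0.17 (SE 0.05, adjusted p = 0.0620 in edgeR) and -0.15 (SE 0.04, adjusted p = 0.0576 in edgeR), which were -0.06 and -0.04 with the GC trend removed. Without LX-2FAP 1 both were called (adjusted p = 0.0225 for MCM5 and 0.0332 for MCM2). Of MCM2's exon bases, 23.6% are shared with genes on the other strand, and whether counting used strand is not stated.

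The 3 remaining subunits overlapped between the groups. MCM4 stood at 455.5, 441.7 and 458.5 CPM in the control libraries and at 444.0, 403.6 and 415.2 CPM in the LX-2FAP libraries (log2 fold change -0.10, SE 0.04, adjusted p = 0.161 in edgeR), MCM3 at 307.0, 288.5 and 279.3 CPM against 283.2, 270.5 and 271.0 CPM (-0.09, SE 0.04, adjusted p = 0.260 in edgeR), and MCM6 at 116.6, 115.2 and 113.4 CPM against 115.2, 100.2 and 107.3 CPM (-0.10, SE 0.05, adjusted p = 0.282 in edgeR). In each of these 3 genes LX-2FAP 1 lay inside the range of the controls and LX-2FAP 2 gave the lowest value. With the GC trend removed, the log2 fold changes of MCM4, MCM3 and MCM6 were -0.07, -0.03 and -0.09. The 6 subunits, which assemble in equal numbers, summed to 1408, 1337 and 1359 CPM in the control libraries and 1318, 1190 and 1234 CPM in the LX-2FAP libraries, 8.85% lower on average and without overlap. This sum was not formed with the GC trend removed. Within the FPKM of the 6 subunits, MCM7 took 16.2% ± 0.783 in LX-2Vector and 14.7% ± 1.12 in LX-2FAP (SD, n = 3), and the groups overlapped, as they did for the share of each other subunit.

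**Figure D3:**
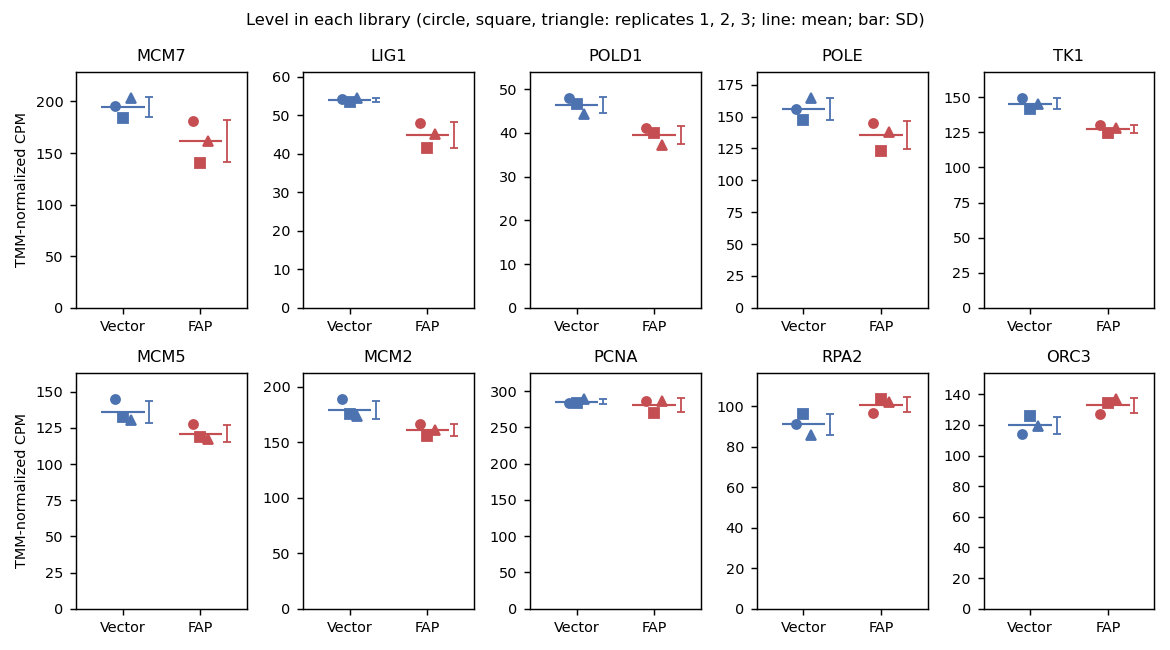
TMM-normalized CPM in each library for 10 replication genes, with symbols for replicates 1 to 3, a line at the mean and an SD bar (n = 3). MCM7, LIG1, POLD1, POLE, TK1, MCM5 and MCM2 lie lower in all 3 LX-2FAP libraries, PCNA overlaps (270.3 to 286.7 CPM against 283.7 to 288.9 CPM), and RPA2 and ORC3 lie higher in all 3.

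Genes that activate the helicase, and those for the clamp and its loader, gave no call. The 6 activation genes (MCM10, CDC45 and GINS1 to GINS4) had a median log2 fold change of -0.01 and ran from -0.04 to 0.10. MCM10, a scaffold of the active helicase, was the one of them whose groups did not overlap, at 59.5 ± 0.776 CPM in the control libraries and 63.7 ± 1.24 CPM in the LX-2FAP libraries (SD, n = 3), with no call. The GINS subunits summed to 177.1 ± 2.49 CPM and 175.3 ± 2.99 CPM. PCNA measured 284.0, 283.7 and 288.9 CPM in the control libraries and 285.7, 270.3 and 286.7 CPM in the LX-2FAP libraries, so the gene with the highest level per unit of length overlapped between the groups. RFC1 to RFC5, the loader that opens PCNA, summed to 666.5 ± 11.6 CPM and 674.6 ± 11.0 CPM, which also overlapped.

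Of the single-strand binding proteins of replication protein A (RPA), RPA2 was at 91.4, 96.1 and 85.8 CPM in the control libraries and at 96.8, 103.6 and 102.2 CPM in the LX-2FAP libraries. Its groups stood 0.716 CPM apart at the closest, and the log2 fold change of 0.15 (SE 0.05, adjusted p = 0.0923 in edgeR) came to 0.18 and was called with the GC trend removed (adjusted p = 0.0420). RPA1, RPA2 and RPA3 together gave 325.2 ± 12.8 CPM and 332.5 ± 2.46 CPM, with overlap.

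Polymerase alpha-primase, which starts each new strand, overlapped as a complex, at 237.5 ± 4.62 CPM in the control libraries and 237.8 ± 8.71 CPM in the LX-2FAP libraries. Its subunit POLA2 measured 14.2, 17.1 and 16.0 CPM against 14.1, 13.9 and 13.4 CPM, a separation of 0.0964 CPM at the closest (log2 fold change -0.19, SE 0.09, adjusted p = 0.214 in edgeR). POLA2 had only 250 to 374 counts per library, and 35.1% of its exon bases are shared with AP000944.2 on the same strand.

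The polymerases that copy the bulk of the genome held 2 of the 5 calls. POLD1, the catalytic subunit of polymerase delta (chromosome 19, 50384204 to 50418016, plus strand, GRCh38), measured 47.9, 46.7 and 44.4 CPM in the control libraries and 41.2, 39.9 and 37.3 CPM in the LX-2FAP libraries. Every LX-2FAP library lay below every control (log2 fold change -0.23, SE 0.06, adjusted p = 0.0312 in edgeR), and with the GC trend removed the value was -0.06 (adjusted p = 0.509). POLD1 shares 8.6% of its exon bases with AC020909.1 on the same strand. POLE, the catalytic subunit of polymerase epsilon (chromosome 12, 132623753 to 132687365, minus strand, GRCh38), measured 156.1, 147.2 and 164.5 CPM in the control libraries and 144.7, 123.0 and 138.2 CPM in the LX-2FAP libraries. The 2 nearest POLE libraries were 2.56 CPM apart (log2 fold change -0.20, SE 0.06, adjusted p = 0.0494 in edgeR), and the value was -0.11 with the GC trend removed (adjusted p = 0.239). POLD2, POLD3 and POLE2, the other subunits among the 43 genes, were not called, and their values overlapped. Their log2 fold changes of -0.09, -0.03 and -0.10 were 0.03, -0.03 and -0.09 with the GC trend removed, so POLD2 changed sign. POLD4, POLE3 and POLE4, which stand in the list of further replication genes, were not called either, at 7.49 ± 0.832, 136.9 ± 5.51 and 23.5 ± 2.20 CPM in the control libraries and 6.61 ± 0.584, 144.7 ± 7.59 and 25.6 ± 1.58 CPM in the LX-2FAP libraries, with overlap in each. Summed, POLD1, POLD2 and POLD3 gave 292.9 ± 4.02 CPM and 278.1 ± 7.01 CPM, 5.03% lower in LX-2FAP, and POLE with POLE2 gave 169.9 ± 8.89 CPM and 148.3 ± 12.7 CPM, 12.7% lower, both without overlap. With POLD4 the difference of the delta sums was -5.20%, and with POLE3 and POLE4 the epsilon subunits came to 330.3 ± 1.75 CPM and 318.6 ± 6.21 CPM, a difference of -3.55%, both without overlap. None of these sums was formed with the GC trend removed.

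LIG1, which seals Okazaki fragments, had the lowest adjusted p of the 43 genes. It lies on chromosome 19 (48115445 to 48170603, minus strand, GRCh38) and measured 54.2, 53.5 and 54.5 CPM in the control libraries and 48.1, 41.6 and 45.1 CPM in the LX-2FAP libraries, so the controls spanned about 1 CPM and all 3 LX-2FAP libraries lay below them (log2 fold change -0.26, SE 0.06, adjusted p = 0.0184 in edgeR). With the GC trend removed the log2 fold change was -0.16 (adjusted p = 0.0828). FEN1, which trims the flaps before LIG1 acts, was at 87.1 ± 4.24 FPKM in LX-2Vector and 83.3 ± 1.79 FPKM in LX-2FAP and was not called.

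Among the genes of nucleotide supply, TK1, the S-phase thymidine kinase of the salvage pathway (chromosome 17, 78174075 to 78187233, minus strand, GRCh38), measured 149.4, 141.3 and 145.4 CPM in the control libraries and 130.4, 124.5 and 127.7 CPM in the LX-2FAP libraries. The gap between the groups was wider than the spread within either (log2 fold change -0.19, SE 0.04, adjusted p = 0.0202 in edgeR), and the value was -0.04 with the GC trend removed (adjusted p = 0.593). TYMS, which makes thymidylate de novo, was at 74.6, 71.1 and 71.4 CPM against 68.6, 65.0 and 65.8 CPM, lower in every LX-2FAP library but not called (log2 fold change -0.12, SE 0.05, adjusted p = 0.139 in edgeR), and 46.6% of its exon bases are shared with genes on the other strand. Ribonucleotide reductase, built of RRM1 with RRM2 or RRM2B, turns ribonucleotides into deoxyribonucleotides. RRM1 stood at 206.8, 209.4 and 207.1 CPM against 216.5, 217.4 and 211.8 CPM, and RRM2 at 200.9, 209.4 and 209.5 CPM against 210.6, 210.8 and 205.0 CPM. RRM1 was higher in each LX-2FAP library without a call, RRM2 overlapped, and their sum was 414.4 ± 5.86 CPM against 424.0 ± 6.27 CPM. The ratio of RRM2 to RRM1 overlapped as well.

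The 28 members that are neither MCM2-7 subunits nor past an unadjusted p of 0.05 had log2 fold changes of -0.10 to 0.10 and adjusted p of 0.230 to 0.988. Counting all 43, the groups did not overlap for 9 genes that were lower in LX-2FAP (20.9%, against 13.4% of all tested genes) and for 6 that were higher (14.0%, against 13.0%). The 9 were MCM2, MCM5, MCM7, POLA2, POLD1, POLE, LIG1, TYMS and TK1, and the 6 were ORC3, MCM10, RPA2, RPA3, PRIM2 and RRM1. The higher share was near that of all tested genes. Of the 9 lower genes, MCM2, MCM5, MCM7, POLD1, POLE, LIG1 and TK1 had a GC content of at least 55%. Of all tested genes on that side of 55%, 6.79% were called lower, against 1.37% below it. Overlap of the groups was not counted by GC content or with the GC trend removed.

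All 5 called genes had a GC content of at least 55% in their longest transcript (MCM7 57.6%, LIG1 56.4%, POLD1 65.0%, POLE 55.6% and TK1 62.8%), a split chosen after the values were seen. The other 4 genes on that side were CDT1, MCM2, MCM5 and POLD2. Those 9 genes had a median log2 fold change of -0.19, and the 34 genes below 55% a median of -0.01 with 0 called. Over all tested genes with a known GC content, 6.79% of the 4641 at 55% or more were called lower and 0.129% higher, with a median of -0.10, and of the 13288 below 55%, 1.37% were called lower and 3.46% higher, with a median of 0.02. Across the 43 genes, log2 fold change and GC content had a Pearson r of -0.77 and a Spearman rho of -0.73 (genes are not independent replicates and share the same 6 libraries), and -0.37 and -0.33 with the GC trend removed. Over 17929 tested genes the values were -0.29 and -0.36. With the trend removed, the 9 GC-rich replication genes had a median of -0.06 and the others 0.02, beside 0.03 for all genes on either side of 55%. The origin of the GC trend was not tested.

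**Figure D4:**
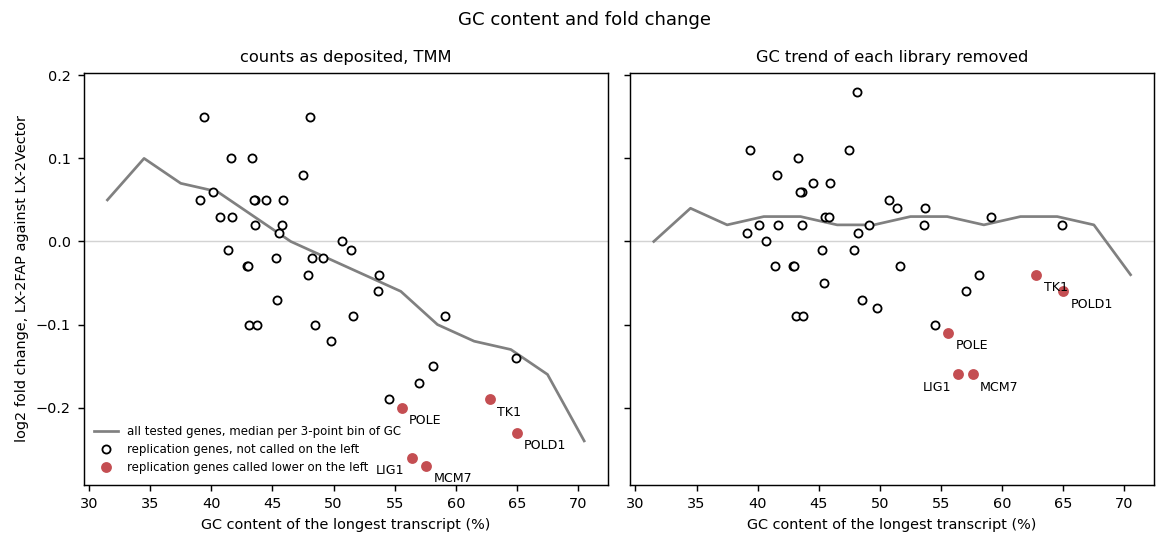
Log2 fold change (LX-2FAP against LX-2Vector) by GC content of the longest transcript in percent, for the 43 replication genes (points) and as the median of all tested genes per bin of GC content (line). On the left, counts as deposited: the line falls from 0.10 at 33 to 36% to -0.24 at 69 to 72% and the 5 called genes (red) lie below it; on the right, with the GC trend of each library removed, the same 5 genes lie between -0.16 and -0.04 and none passed the test.

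Split by the promoter words, the 18 genes with an E2F-type word had 4 positive and 14 negative log2 fold changes and a median of -0.09, with 3 called lower (MCM7, LIG1 and POLE). The 19 genes whose window held none had 10 positive and 9 negative values and a median of 0.02, with 2 called lower (POLD1 and TK1), and for the 6 genes without a matched window the median was -0.04. The ranges of the 3 sets overlapped, from -0.27 to 0.15 with the word and from -0.23 to 0.10 without it. This split used the fit with the GC trend left in and was not repeated with it removed. Of the genes with a GC content of at least 55%, CDT1, MCM2, MCM7, POLE and LIG1 had the word. POLD1, POLD2 and TK1 lacked it, and MCM5 had no matched window.

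Other genes of the same pathway gave few calls. Of 38 further replication genes (origin firing, fork protection, chromatin assembly and nucleotide metabolism), 1 was called higher and 1 lower (2.63% each, against 2.57% higher and 2.73% lower over all tested genes), with a median log2 fold change of 0.03. The higher one was RRM2B, the p53-inducible subunit of ribonucleotide reductase, at 52.1 ± 1.29 CPM in the control libraries and 59.5 ± 1.44 CPM in the LX-2FAP libraries (log2 fold change 0.19, SE 0.05, adjusted p = 0.0348 in edgeR). RECQL4, a helicase in replication initiation, was lower at 38.6 ± 1.57 CPM and 33.3 ± 0.664 CPM (-0.21, SE 0.06, adjusted p = 0.0407 in edgeR). Of 16 genes of the E2F and pocket protein network, 2 were called lower (12.5%, against 2.73%) and 0 higher (against 2.57%), with a median of 0.01. E2F1, an activator of S-phase genes, measured 84.8 ± 3.22 CPM in the control libraries and 74.1 ± 3.72 CPM in the LX-2FAP libraries (-0.20, SE 0.05, adjusted p = 0.0359 in edgeR), and MYBL2, an E2F target that acts with the MuvB complex, 91.2 ± 6.13 CPM and 75.4 ± 7.08 CPM (-0.27, SE 0.06, adjusted p = 0.0252 in edgeR). At an unadjusted p under 0.05, 1 of the 16 was higher (6.25%, against 10.5%) and 3 were lower (18.8%, against 11.6%). E2F1 and MYBL2 had a GC content of 62.5% and 60.5%, and of all tested genes at 55% or more, 6.79% were called lower. With the GC trend removed, none of RRM2B, RECQL4, E2F1 and MYBL2 was called. Without LX-2FAP 2 or LX-2FAP 3 neither list held a call, nor without LX-2Vector 1 or LX-2Vector 3, while without LX-2Vector 2 they held 0 and 1, and without LX-2FAP 1 they held 5 and 4. Over all tested genes, the calls in these fits ran from 26 without LX-2FAP 3 to 1949 without LX-2FAP 1.

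Genes of G2 and M phase, the stage after replication, were higher where they were called. Of 30, 5 were called higher and 0 lower (16.7% higher, against 2.57% of all tested genes), 27 had positive and 3 negative log2 fold changes, and the median was 0.12. At an unadjusted p under 0.05, 19 were higher (63.3%, against 10.5%) and 1 was lower (3.33%, against 11.6%). The 5 were HMMR (0.21, SE 0.04, adjusted p = 0.0136 in edgeR), the kinetochore genes NUF2 (0.21, SE 0.05, adjusted p = 0.0186 in edgeR) and CENPE (0.22, SE 0.05, adjusted p = 0.0335 in edgeR), cyclin B1 or CCNB1 (0.15, SE 0.04, adjusted p = 0.0356 in edgeR) and the spindle gene DLGAP5 (0.16, SE 0.04, adjusted p = 0.0436 in edgeR). With the GC trend removed, 9 were called higher (against 3.28% of all tested genes) and 0 lower, and HMMR, NUF2 and CCNB1 were among the 9. The median of the list was 0.12 in that fit too, while the median of all tested genes moved from -0.01 to 0.03. Without LX-2FAP 3 none of the 30 was called, and the number was 1 without LX-2FAP 2, 2 without LX-2Vector 3, 3 without LX-2Vector 1 or LX-2Vector 2 and 11 without LX-2FAP 1. All tested genes gave 26 calls without LX-2FAP 3 and 1949 without LX-2FAP 1. In the promoter windows, 2 of the 24 matched genes of this list (8.33%) held an E2F-type word and 15 (62.5%) TTTGAA, against 48.6% and 2.70% of the replication genes. The medians of the lists were not compared by a test, and all lists were chosen with earlier results of these data known.

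**Figure D5:**
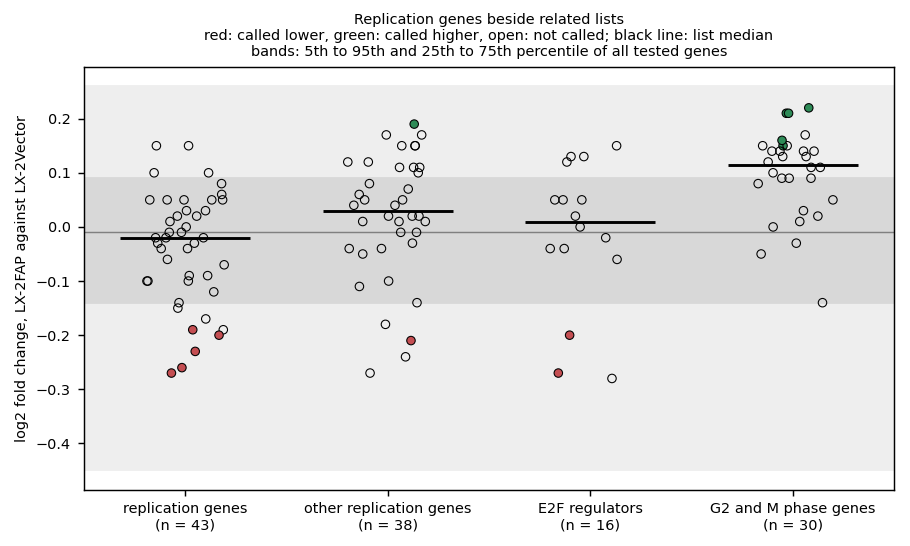
Log2 fold change (LX-2FAP against LX-2Vector) of each gene in the 43 replication genes and 3 related lists, each with a line at its median (-0.02, 0.03, 0.01 and 0.12) and the called genes in red (lower) or green (higher). Grey bands span the 5th to 95th and the 25th to 75th percentile of all tested genes, -0.45 to 0.26 and -0.14 to 0.09; each replication gene lies within -0.27 to 0.15.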

How the data were processed

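Per the study's methods and the submitters' processing notes, reads were aligned with HISAT2 2.0.5 and counted per gene with featureCounts 1.5.0-p3. The methods name poly(A) isolation as well as RNA depleted of ribosomal RNA. The submitters' notes list hg18 as the build, the annotation and the use of strand are not given in the sources used here, and coordinates come from GENCODE release 29 (GRCh38). The authors deposited whole-number counts that were not normalized. The deposited FPKM values were computed by the authors from count and gene length, and served to rank levels, for shares among MCM subunits and for the limma fits. The deposited fold changes and p-values were not used.

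The members and lists, their roles and the rule for named genes (called members, those at an unadjusted p under 0.05, MCM2-7 subunits, the 5 highest and 5 lowest by FPKM, called list genes) were chosen with earlier results of these data known. Groups and replicate numbers came from sample titles. Counts were tested with edgeR 4.0.16 (R 4.3.3; quasi-likelihood test, TMM, minimum count 10 and minimum total 15), LX-2FAP against LX-2Vector, 2-sided, adjusted by the Benjamini-Hochberg method over 18275 genes, with standard errors derived from the F statistic. CPM, and their sums over a complex, were TMM-normalized with the GC trend left in. Groups were said not to overlap where all 3 values of one lay below all 3 of the other. GC content was that of the longest transcript (98.1% of tested genes), and its trend was removed per library as a loess offset (span 0.5). Alternatives used DESeq2 1.42.0, limma 3.58.1 on log2(FPKM + pseudocount) with a pseudocount of 1 or 0.1, other scalings and filters, the replicate number as a block, and 1 library left out. In simulated data the fit recovered 44% of 1.2-fold, 56% of 1.5-fold, 86% of 2-fold and 94% of 3-fold changes, and 6.04% of its calls were false. Changes under 1.2-fold were not simulated, so a gene that was not called may still differ. Replicate libraries differed beyond counting noise (chi-square statistic over its degrees of freedom 2.02 to 4.99), and depth was 17355700 to 26352060 counts. No set test was run. The cell type markers were looked up only as levels.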

Additional observations from a re-analysis of the deposited data

How the results depend on the processing

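With 3 libraries per group and small changes, most calls lay near the threshold. The number of replication genes called (5, with 5 lower and 0 higher) was 0 with 0 lower in limma on log2(FPKM + 1) and on log2(FPKM + 0.1), 1 with 0 lower and 1 higher with the GC trend removed, 0 with 0 lower with the GC trend removed and the replicate block, 2 with 2 lower under the study's cutoff and 9 with 2 higher at an adjusted p under 0.1 (added after the data were seen). DESeq2's Wald test called 1 higher. Leaving out 1 library gave 0 to 10 called, 0 to 8 lower and 0 to 2 higher. The median log2 fold change of -0.02 was -0.05 with library size alone and in both limma fits, and 0.01 with the GC trend removed, with or without the block. It was -0.04 to -0.02 without 1 library. With library size alone, 12 members were positive and 31 negative, against 16 and 27, beside a median of -0.04 for all genes. The 2 calls among other replication genes were 4 with no filter, 4 with the replicate block, 0 in both limma fits, with the GC trend removed and with that and the block, 1 under the study's cutoff and 0 to 5 without 1 library. The 2 calls among E2F regulators were 0 in both limma fits and in both fits with the GC trend removed, and 0 to 4 without 1 library. The 5 calls among G2 and M phase genes were 13 in the Wald test, 8 with DESeq2 size factors, 3 with library size alone, 10 with no filter, 0 in both limma fits, 9 with the GC trend removed, 1 with that and the block, 0 under the study's cutoff and 0 to 11 without 1 library. Over all genes, 967 calls were 1606 with no filter, 2 in each limma fit, 253 with the GC trend removed and the block, 1992 at an adjusted p under 0.1 and 26 to 1949 without 1 library. FAP stayed called in each fit, at 8.17 to 8.45 without 1 library. Of the MCM2-7 subunits and the members at an unadjusted p under 0.05, CDT1 changed sign, from -0.14 to 0.02 with the GC trend removed and 0.03 with the block as well, and of the 28 other members, 7 and 8 did. Of 16 alternatives, LIG1, POLD1 and TK1 were called in 8, and MCM7 and POLE in 6. The cause of these differences was not tested.

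The sample titles do not say whether same-numbered libraries were prepared together. Same-numbered libraries deviated from their group means with correlations of -0.04, 0.04 and -0.01, and differently numbered ones with -0.11 to 0.12. These values show no shared deviation, but they cannot settle how the libraries were prepared. With the replicate number as a block, 7 replication genes were called (7 lower, 0 higher), and 975 of all genes.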
